A study of Mus musculus with 4 samples.

Results

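The immunoglobulin kappa variable (Igkv) segments of the mouse were taken as all RefSeq genes of the mm10 assembly on chromosome 6 whose symbol starts with Igkv, 162 of 49595 genes placed on chromosomes. They lie in 1 array at chr6:67555636-70704177, 3.15 Mb long, and 60 of them are annotated as pseudogenes. The trimethylated lysine 9 of histone H3 (H3K9me3) was profiled by chromatin immunoprecipitation and sequencing in CD8+ T cells of wild-type (WT) and Suv39h1-KO (KO) mice on a C57BL/6 background, cultured for 3 days with anti-CD3, anti-CD28 and IL-2. Suv39h1 encodes a histone methyltransferase that writes this mark, and island lists cannot show its loss. The series title calls the wild-type cells littermate, and neither the number of animals nor the Suv39h1 allele is stated in the sources used here. Each genotype has 1 H3K9me3 library, used through the authors' list of islands, which are stretches where SICER found more reads than its background allows. No genotype was replicated, so values stand side by side with no test and no p-value. They describe these 2 libraries, and a segment without an island may still carry the mark below the calling limit.

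The kappa locus makes one of the light chains of antibodies. In developing B cells the RAG recombinase joins a single variable segment to a joining (Igkj) segment, and splicing adds the constant exon Igkc. Each variable segment has its own promoter, leader and coding exon, and is followed by a recombination signal. T cells do not normally rearrange or express this locus, and their receptor genes use other arrays. H3K9me3 is a mark of silent chromatin, found over repeats and over many tandem gene families.

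Promoter sequence from RefSeq (GRCm38.p6) was searched for the octamer ATGCAAAT, or ATTTGCAT on the other strand, the element of immunoglobulin promoters that binds OCT factors. None of the 162 segments has an entry in that table. It does hold the 300 bases around the start of 3 long noncoding RNA genes inside the array, Gm38573, LOC108169192 and Gm46962. The octamer stands in that of LOC108169192, which lies between Igkv1-88 and Igkv13-87, at chr6:68880650-68880949 on the minus strand. It is shown, with the octamer in capitals, as the only promoter window inside the array that holds this element.
LOC108169192: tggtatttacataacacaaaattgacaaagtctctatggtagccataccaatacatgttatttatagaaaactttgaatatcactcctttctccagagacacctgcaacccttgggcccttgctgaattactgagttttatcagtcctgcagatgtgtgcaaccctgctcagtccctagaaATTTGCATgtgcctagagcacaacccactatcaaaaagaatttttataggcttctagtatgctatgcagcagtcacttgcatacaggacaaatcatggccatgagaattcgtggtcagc
Of all 32851 promoter windows of this length in the table, 570 (1.74%) hold the octamer. No island covered this window in either list. The nearest WT island lay 14.1 kb away and the nearest KO island 9.65 kb away. The promoter windows of Gm38573 and Gm46962 also had no island in either list.

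More of the kappa array lay under H3K9me3 islands in KO than in WT. In WT, 11 islands covered 155.5 kb, 4.94% of the array. In KO, 42 islands covered 421.5 kb, 13.4% of the array. The ratio of covered length was 2.71, against 1.77 over chromosome 6 and 1.83 over the autosomes, where islands covered 5.67% in WT and 10.4% in KO. WT cover of the array was thus a little below, and KO cover above, the autosomal value. With the KO list reduced to its 12371 islands with most reads, the number in the WT list, KO cover was 274 kb. Reads follow island length, so this cut keeps mostly the longer KO islands and does not match the lists in depth. The same cut was not applied to the chromosome 6 or autosomal values. The full lists hold 12371 islands with 5547695 reads in WT and 25424 islands with 10020253 reads in KO, and whole-library depth is unknown, so the part of depth in the larger number of KO islands was not tested.

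**Figure D1:**
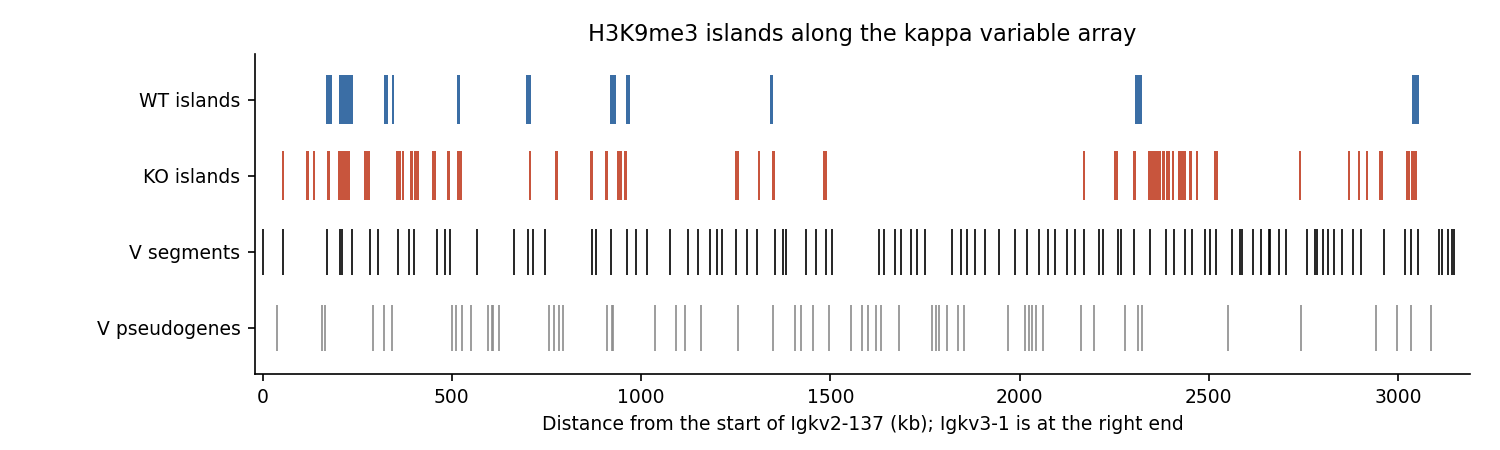
Islands along the kappa array, with the distance from Igkv2-137 in kb on the horizontal axis; blue blocks are the 11 WT islands, red blocks the 42 KO islands, black ticks the 102 segments not annotated as pseudogenes and grey ticks the 60 pseudogenes. WT islands gather at the left, and KO islands form a dense run between 2250 and 2500 kb, to the right of 676.5 kb with no island in either list.

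The array lay within the range of other stretches of the genome in either library. The autosomes were divided into 753 windows of the array's length that do not touch it. Their median cover was 4.92% in WT and 9.62% in KO, and their highest 20.3% in WT and 35.6% in KO. Cover was above that of the array in 375 windows in WT and in 240 windows (31.9%) in KO. The KO minus WT difference was 8.45 points in the array, and 215 of the windows had a larger one. On chromosome 6 alone, 14 of 44 windows did.

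**Figure D2:**
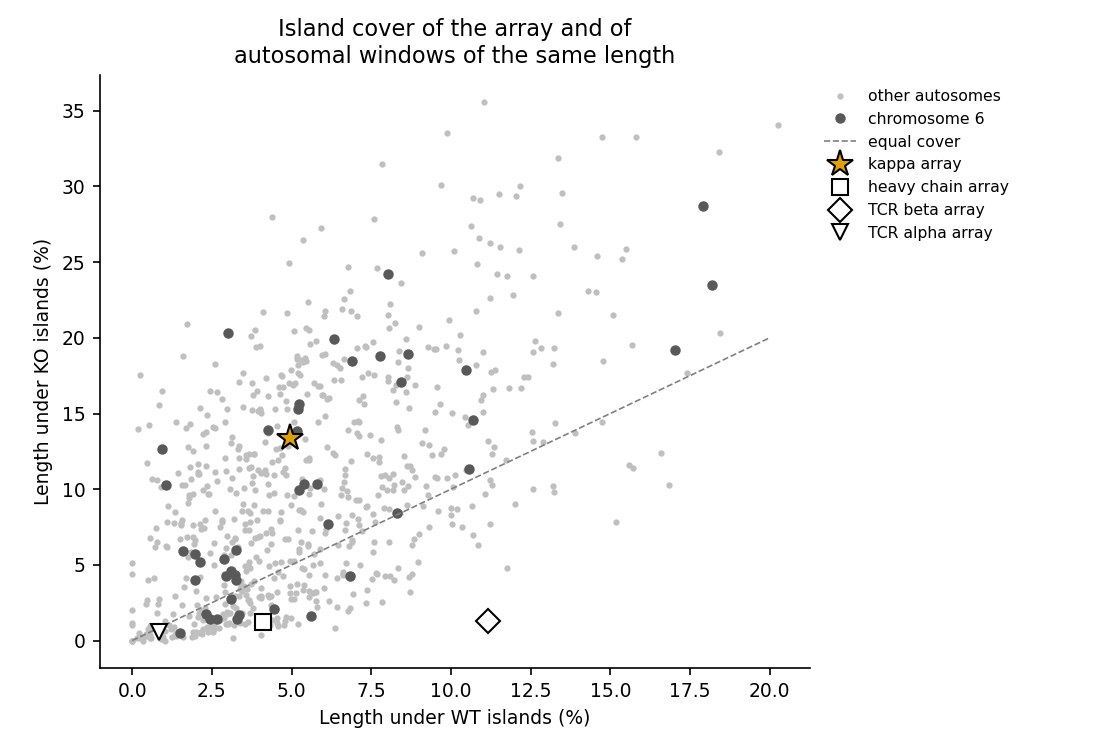
Length under WT islands (horizontal axis, percent) against length under KO islands (vertical axis, percent) for 753 autosomal windows of 3.15 Mb (dots, with chromosome 6 darker) and for 4 arrays of variable segments at their own lengths. The kappa array (star, 4.94% and 13.4%) lies above the dashed line of equal cover and inside the cloud of windows. The heavy chain and T cell receptor beta arrays lie below the line, as does the T cell receptor alpha array, close to it (0.839% and 0.581%).

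Counted by segment, 15 of 162 Igkv segments (9.26%, exact 95% binomial interval 5.28 to 14.8) had a WT island over the segment or within 2 kb of it. In KO 35 did (21.6%, 15.5 to 28.7). Such segments are called marked. With the KO list reduced to the WT number of islands 19 were marked in KO, and without the flanks of 2 kb 20 were, against 12 in WT. Intervals cover the counting of segments only, and neighbouring segments share islands. Islands touched 7.93% of autosomal windows of the median length of a segment region, 4526 bp, in WT and 14.9% in KO. Inside the array they touched 6.63% of such windows in WT and 18.7% in KO. The shares of segments were therefore above those of the array's windows in both lists, and the intervals given for segments include the values of the array's windows. The autosomal KO value, 14.9%, lies just below the KO interval. Because neighbouring segments share islands, these intervals cannot decide whether the shares differ. Of protein-coding genes, whose regions are mostly longer, 14% were marked in WT and 13.7% in KO.

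Both lists marked 7 segments, WT alone 8 and KO alone 28, while 119 had no island in either. As shares of the 162 segments these are 4.32% for both lists, 4.94% for WT alone and 17.3% for KO alone. The autosomal windows gave 3.11% for both, 4.82% for WT alone and 11.8% for KO alone. Windows inside the array gave 3.46%, 3.17% and 15.3% in the same order, protein-coding genes 7.58%, 6.39% and 6.16%, and variable segments of other antigen receptor arrays 0.822%, 3.56% and 1.64%. Shares of segments were thus above those of windows inside the array in each class, most in proportion for WT alone. KO alone was the most frequent class among marked segments and among marked windows of the array. WT cover of a marked region was usually deep, with a median of 4.30 kb of a region of about 4.5 kb, and 7 regions lay wholly under islands. KO cover was more often partial, with a median of 2.65 kb and 12 of 35 regions wholly covered. Islands reached the segment itself in 12 cases in WT and 20 in KO.

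KO islands lay over segments and between them about equally. Segment regions make up 22.8% of the array and held 22.2% of KO island length. They held 32.5% of WT island length. Put the other way, WT islands covered 7.05% of the sequence within segment regions and 4.32% of that between them, and KO islands 13% and 13.5%.

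The 7 segments marked in both lists lie mostly at the far end of the array from Igkj. Igkv1-132 had 3.91 kb of its region under a WT island and 4.71 kb under a KO island. Its neighbour Igkv1-131 was covered whole in both, over 4.74 kb. A WT island at chr6:67758501-67795000, 36.5 kb long with 1438 reads, and a KO island at chr6:67756001-67787000, 31 kb long with 1237 reads, span both segments and share 28.5 kb. This is the longest WT island of the array, and the place where the lists meet over the greatest length.

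The same WT island ran on over Igkv14-130, which it covered over 4.47 kb. The KO island stopped 4.05 kb short of that segment. At Igkv1-133 the WT island chr6:67724501-67738000 covered 3.16 kb of the region and a KO island inside it 0.661 kb. At Igkv14-111 the WT island chr6:68252501-68265000 covered 4.47 kb and a KO island 0.369 kb. At Igkv14-100 the WT island chr6:68517001-68526500 covered 4.47 kb and a KO island 1.99 kb. In these 3 cases the lists overlapped, but the KO island left the segment itself free.

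Towards Igkj, Igkv13-87 and Igkv3-7 completed the shared set. Igkv13-87, a pseudogene, had 3.20 kb in WT, under chr6:68895001-68904000, and KO cover of 4.47 kb. Igkv3-7 had 4.56 kb in WT, under chr6:70592001-70610000, and 1.06 kb in KO, under chr6:70589501-70606500. These islands overlap by 14.5 kb and are the last ones before the joining segments.

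In all, 8 of the 11 WT islands met a KO island (72.7%, exact 95% interval 39 to 94) and 8 of the 42 KO islands met a WT island (19%, 8.60 to 34.1). On the autosomes these shares were 48% and 24.9%. By length, 73.5 kb lay in both lists, 47.3% of WT cover and 17.4% of KO cover, beside 32.1% and 17.5% on the autosomes. The lists left 82 kb in WT alone and 348 kb in KO alone.

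The 8 segments marked in WT alone lay under 5 islands. Igkv14-126-1 had 1.48 kb and Igkv14-126 had 1.14 kb, at the edges of the islands chr6:67877001-67886500 and chr6:67897501-67904000. Igkv20-101-2 had 2.60 kb, Igkv15-101-1 had 4.49 kb and Igkv15-101 had 4.30 kb, all under chr6:68474501-68489000. Igkv5-40-1 had 4.60 kb and Igkv12-40 had 1.15 kb, under chr6:69861001-69878500. Igkv14-130, named above, completes the 8, of which 6 are annotated as pseudogenes. By reads per kb, the islands at Igkv14-126-1, Igkv20-101-2 and Igkv5-40-1 lay low in the WT list, at percentiles 11.4, 15.3 and 3.22. Those at Igkv14-130 and Igkv14-126 lay at 37.8 and 73.4. The WT island chr6:68069501-68078000 reached no segment region.

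The 28 segments marked in KO alone were more spread out. In the distal part, a KO island over chr6:67606501-67611000 covered 3.26 kb at Igkv1-135, and one over chr6:67908001-67922000 covered 4.48 kb at Igkv11-125. Igkv16-104 had 3.90 kb and Igkv15-102 had 4.46 kb. In the middle, Igkv4-90 had 4.53 kb and the short Igkv13-89-1 had 4.05 kb, both under chr6:68803501-68815500, and Igkv4-79 had 4.53 kb. Nearer to Igkj, Igkv6-32 had 4.56 kb, Igkv5-39 had 4.55 kb, Igkv18-36 had 4.51 kb and Igkv12-41 had 4.46 kb. All 11 had no WT island within 2 kb. The other 17 had between 0.498 and 3.19 kb of KO cover. Among the longest KO islands were also chr6:67824501-67839500, 15 kb long with 587 reads, which ends next to Igkv9-129, and chr6:68492001-68506500, 14.5 kb long with 555 reads, which reached no segment region. In all, 11 KO islands reached none.

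Median read density of the array's islands was close to that of each whole list. WT islands of the array held 35.4 to 42.8 reads per kb, with a median of 39.4, against a median of 40.4 over the whole WT list. KO islands held 35.2 to 48.2, with a median of 40.7, against 40.1 over the whole KO list. The 1st percentile of all islands was 34.3 in WT and 34.1 in KO, and all array islands lay above these lower limits. No WT island of the array reached the 75th percentile of the WT list, 43 reads per kb. The densest in KO was chr6:70470501-70477000, with 48.2 reads per kb at the 94.9th percentile of its list, and it reached no segment region. Next came chr6:68864501-68871000 near Igkv1-88, with 45.7, chr6:67606501-67611000 at Igkv1-135, with 44.7, chr6:68043501-68050000 at Igkv9-120, with 44.5, and chr6:69723001-69727500 at Igkv5-48, with 43.6. In WT the densest was chr6:67897501-67904000 beside Igkv14-126, with 42.8.

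The array was not even along its length, divided here into 3 parts of equal length. The distal part, farthest from Igkj, had 8 WT islands over 10.6% of its sequence and 19 KO islands over 18.6%. The middle part had 1 WT island over 0.858% and 4 KO islands over 3.57%. The part next to Igkj had 2 WT islands over 3.38% and 19 KO islands over 18%. The KO to WT ratio of covered length was 1.76 in the distal part and 5.32 next to Igkj. Of the 47 distal segments 11 were marked in WT and 15 in KO. In the middle part these were 1 and 6 of 61, and next to Igkj 3 and 14 of 54.

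**Figure D3:**
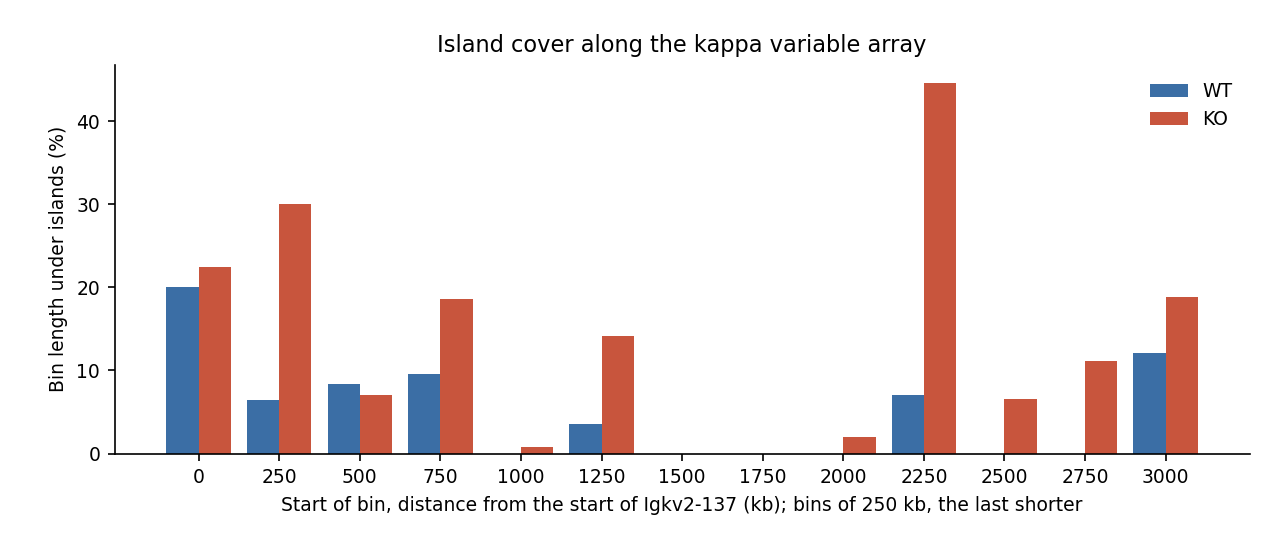
Percent of each 250 kb bin of the array that lay under islands (vertical axis), from Igkv2-137 at the left to Igkv3-1 at the right, in WT (blue) and KO (red). The tallest KO bar, 44.5%, stands at 2250 to 2500 kb where WT has 7%, and 2 bins from 1500 to 2000 kb have no island in either list.

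Along bins of 250 kb, WT cover was highest in the first bin, with 20%, where KO cover was 22.4%. In the second bin the values were 6.40% and 30%. WT cover exceeded KO cover in the third bin alone, by 8.40% to 7%. A WT island was absent from 6 of the 13 bins and a KO island from 2.

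A dense run of KO islands lay at chr6:69805001-70081000, with bounds set at its outer KO islands after these were seen. High KO cover and the contrast with WT follow in part from that choice. How often such runs occur elsewhere was not counted. In this run, 11 KO islands covered 123 kb, 44.6% of 276 kb, and 1 WT island covered 17.5 kb, 6.34%. The run makes up 8.77% of the array and held 29.2% of its KO cover. It takes in 14 segments of the Igkv1, Igkv5, Igkv6, Igkv7, Igkv8, Igkv12 and Igkv18 families, of which 8 were marked in KO and 2 in WT. The longest KO island of the array, chr6:69894501-69928500, 34 kb long with 1408 reads, lies in it over Igkv5-39. No WT island overlapped that island.

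A stretch of 676.5 kb without any island in either list lay beside this run, at chr6:69046501-69723000. It holds 41 segments, 25.3% of all, from Igkv13-78-1 to Igkv12-49, and 20 of them are pseudogenes. Of these, 25 belong to the Igkv4 family and 13 to the Igkv13 family, which are interleaved there. The median distance to the nearest island in this stretch was 293.6 kb for WT and 152.9 kb for KO, and 2 of its segments had a KO island within 10 kb. In the WT list the island-free stretch was longer, 957 kb from chr6:68904001 to chr6:69861000, with 58 segments. Such stretches are common: 595 of 25390 gaps between autosomal KO islands were at least as long as 676.5 kb, and together made up 32.8% of the autosomes, and 343 WT gaps reached 957 kb and made up 22.7%. Members of a family are close copies of one another, the sources used here do not state how reads that map to several places were treated, and the part of read mapping in this stretch was not tested.

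Families are numbered by sequence likeness, and 20 are present. Igkv4, the largest, had 0 of 33 segments marked in WT and 3 in KO, Igkv4-90, Igkv4-86 and Igkv4-79. Igkv13, of which 17 of 19 are pseudogenes, had 1 in WT and 2 in KO. In the Igkv1 family 3 of 13 were marked in WT and 6 in KO. Of the Igkv3 family, next to Igkj, 1 of 13 was marked in WT and 3 in KO, and of the Igkv2 family 0 and 1 of 10. Igkv6 and Igkv8 interleave near Igkj, and of their 22 segments 0 were marked in WT and 3 in KO. Igkv5 and Igkv12 had 2 of 18 in WT, under 1 island, and 6 in KO, under 6 islands.

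**Figure D4:**
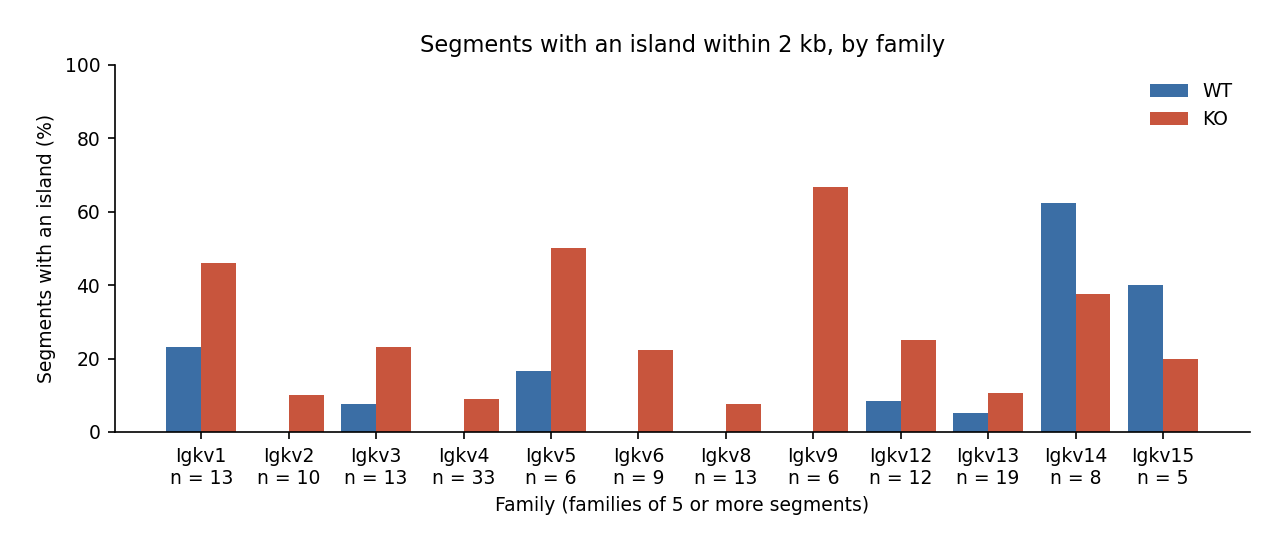
Percent of segments with an island over them or within 2 kb (vertical axis), for the families of 5 or more segments, in WT (blue) and KO (red), with the number of segments under each name. KO is higher in 10 of the 12 families, and WT is higher in Igkv14 (5 against 3 of 8) and Igkv15 (2 against 1 of 5).

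The Igkv14 and Igkv9 families, which share the distal part, went in opposite directions. They are set out because their values stood apart once seen. Of 8 Igkv14 segments, 5 were marked in WT, under 5 different islands, and 3 in KO. Within 10 kb, 7 of 8 had a WT island, against 10 of the 39 segments of other families in the distal part and 18 of the 154 in the whole array. A KO island lay within 10 kb of 5 of the 8, against 21 of the 39 and 49 of the 154. The median distance from an Igkv14 segment to the nearest island was 0.691 kb for WT and 3.61 kb for KO. For the other families of the distal part it was 36.7 kb for WT and 7.91 kb for KO, and over all 162 segments it was 105.3 kb for WT and 29.4 kb for KO.

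The nearest WT islands lay over 3 Igkv14 segments, towards higher coordinates from 4 and towards lower coordinates from 1. They covered Igkv14-130, Igkv14-111 and Igkv14-100. They began 0.523 kb past Igkv14-126-1, 0.858 kb past Igkv14-126 and 2.67 kb past Igkv14-118-2. Igkv14-118-1 lay 4.55 kb above the last of these islands, and Igkv14-134-1, at the distal end, 12.9 kb below one. The reads per kb of these islands ran from 36.2 to 42.8, and they include the densest WT island of the array. They also include the island over Igkv14-111, which ranked 10 of the array's 11 WT islands in density, at percentile 6.63 of the WT list.

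The Igkv9 segments lie between these. None of 6 was marked in WT, where the median distance was 32.9 kb. In KO 4 of 6 were marked, under 4 islands, and all 6 had an island within 10 kb. KO cover was 2.46 kb at Igkv9-123, 2.02 kb at Igkv9-120, 1.71 kb at Igkv9-129 and 0.540 kb at Igkv9-124. Both families have few members in 1 region, so their counts also describe where single islands of the distal part lay.

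**Figure D5:**
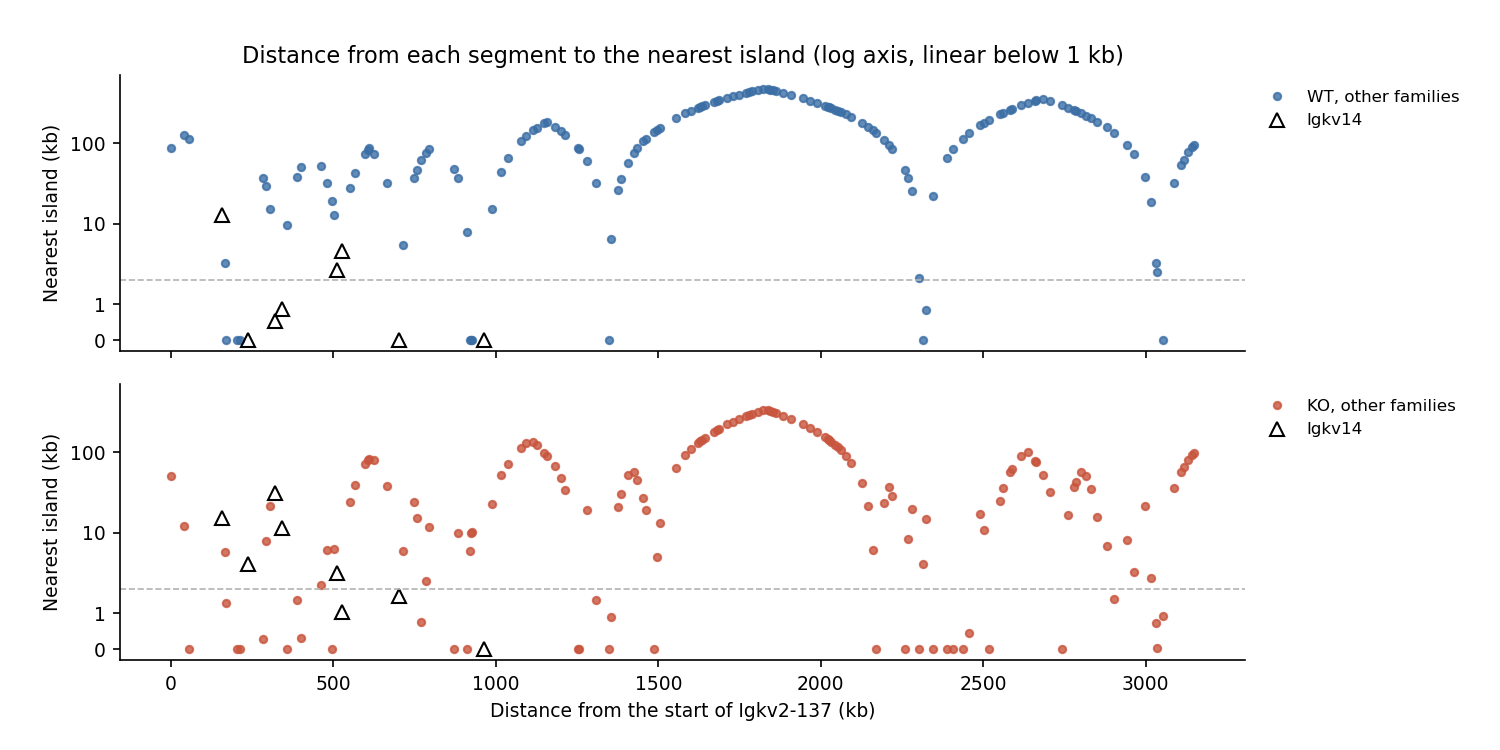
Distance in kb from each of the 162 segments to the nearest WT island (top) and KO island (bottom), on a log axis that is linear below 1 kb, along the array; triangles are the 8 Igkv14 segments and the dashed line marks 2 kb. In WT 7 of the 8 triangles lie below 10 kb, and the arches are stretches without an island.

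Segments that can encode a protein and pseudogenes differed in KO. Among the 102 segments not annotated as pseudogenes, 8 were marked in WT and 28 in KO. Among the 60 pseudogenes, 7 were marked in each list, 1 of them in both. Their median distance to an island was nevertheless alike in KO, 29.4 and 29.3 kb. Pseudogenes are few next to Igkj, with 11 of 54 segments, against 22 of 47 in the distal part and 27 of 61 in the middle part. KO cover was 18% next to Igkj, 18.6% in the distal part and 3.57% in the middle part. The part of position in the difference between pseudogenes and other segments was not tested.

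The end of the array at Igkj carried no island in either list. Igkv3-1, the last segment, lay 93.6 kb from the nearest WT island and 97.1 kb from the nearest KO island. The joining segments Igkj1 to Igkj5 and the constant exon Igkc had none within 2 kb, and lay 112.6 to 116.4 kb from the nearest in WT and 116.1 to 119.9 kb in KO. Beyond them Rpia, an enzyme of the pentose phosphate pathway, had none. At the other end Igkv2-137, the first segment, also had none. The 500 kb on either side of the array had more cover in WT: 3.30% against 1.40% before it and 10.6% against 1.90% after it. Of the 53 kb of WT cover after it, 30.1 kb lay at Tex37 and 6.46 kb at Foxi3. No KO island lay within 2 kb of either gene. Cd8a and Cd8b1, which encode the CD8 coreceptor and lie further on the same side as Igkc, had no island in either list.

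The heavy chain and T cell receptor beta arrays had more cover in WT than in KO. Of 183 heavy chain segments (Ighv, chr12:113572929-116009954) 8 were marked in WT and 5 in KO, with cover of 4.10% and 1.23%. Of 35 T cell receptor beta segments (Trbv, chr6:40891296-41558371), 6 were marked in WT and 0 in KO, with cover of 11.2% and 1.27%. Of 130 alpha segments (Trav, chr14:52427967-53977678), 1 was marked in each list, with cover of 0.839% in WT and 0.581% in KO. The 3 lambda segments (Iglv) had 1 marked in WT and 2 in KO, and the 7 gamma segments (Trgv) 0 and 1. Over all 365 variable segments outside the kappa array, 4.38% were marked in WT and 2.47% in KO. The kappa array thus differed from the heavy chain and beta arrays in direction, which was not tested with 1 library each.

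Genes that act on the kappa locus were marked about as often as protein-coding genes at large, of which 14% were marked in WT and 13.7% in KO. Of 20 genes for recombination enzymes, B cell transcription factors and chromatin architecture, 3 were marked in WT and 2 in KO. Ebf1, a factor of B cell commitment, had 10.5 kb of WT cover and 6 kb of KO cover, and Pou2f1, which encodes an octamer-binding factor, 11.5 and 4.50 kb. Pax5, which keeps B cell identity, had 8 kb in WT alone. Rag1 and Rag2, which encode the recombinase, had none. None of 10 T cell marker genes had an island in either list, and of 10 B cell marker genes 2 had one in WT (Pax5 and Blnk) and 0 in KO. With 10 genes a list, these counts do not stand apart from the same shares of protein-coding genes. Island lists show the mark and not expression, so they do not settle the cell type.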

How the data were processed

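H3K9me3 and input libraries were labelled for WT and KO cells, 4 libraries in all, and 2 H3K9me3 island lists were analysed. The inputs were not analysed here. Per the submitters' processing notes, Bowtie2, SICER 1.1 and mm10 were used; the sources used here do not state calling settings, duplicate handling or the treatment of reads with several matches. The deposited lists hold a whole-number count per island, which was assumed to be ChIP reads. Larger islands hold more (Spearman rho with length, across islands, 0.973 for WT and 0.980 for KO). Any count of reads would rise with length, so this does not identify the column. The authors' counts are not scaled to depth or input, per their values, and intervals cover counting only. Starts and ends were converted to positions counted from 1, and lie on a grid of 500 bp.

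Chromosome lengths run from the first to the last gene or island. Genes came from RefSeq (GRCm38.p6, the assembly that mm10 names). The table gives no strand for the segments, so strand was not used, and 402 genes outside the chromosome sequences were left out. A segment region is the segment with 2 kb on each side, marked where at least 1 bp lies under an island. Named segments are those marked in both lists, the 10 with longest cover in each, the array's ends, Igkj, Igkc and the nearest protein-coding genes, of which 1 is not reported here; others were named after their values were seen. Members and lists were chosen with earlier results of these data known. Interval arithmetic was tested on simulated islands (Python 3.11.15, pandas 2.3.3).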

Additional observations from a re-analysis of the deposited data

How the results depend on the processing

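With 1 library per genotype no replicate could be left out. No paired analysis was possible because there are no numbered replicates. All settings were planned, and KO exceeded WT in marked segments and in covered length in every one run. Without flanks, 20 segments were marked in KO, 8 more than in WT, and the same numbers, 20 and 8, were found where at least 50% of a region had to be covered. With flanks of 10 kb, 25 were marked in WT and 54 in KO. With the denser part of each list, above its median of reads per kb, 3 segments were marked in WT and 16 in KO, a difference of 13, and cover was 29 kb in WT and 193.5 kb in KO. With the KO list reduced to the WT number of islands, keeping those with most reads, 19 were marked in KO, 4 more than in WT, and KO cover was 274 kb. That setting drops KO islands alone and can only lower the difference. It keeps mostly the longer KO islands and does not match the lists in depth. Without pseudogenes 8 of 102 were marked in WT. Other settings (islands of at least 5 kb, joined islands, 100 kb added to the array) stayed within 1.5 times of the reported values. The density and reduced-list settings keep fewer islands, and leaving out pseudogenes keeps fewer segments. The flank and 50% settings keep all islands and segments and change how much overlap counts. Depth limits all values: an island near the lowest density called in 1 list may be missed in the other.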

Other observations

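A small nucleolar RNA gene and short genes annotated only as pseudogenes lie beside several Igkv14 segments, a pattern chosen after the values were seen. Gm22425, annotated as a small nucleolar RNA, lies 0.927 kb above Igkv14-130. The pseudogene Gm25910 lies 0.422 kb above Igkv14-126, and the pseudogene Gm25436 lies 0.524 kb above Igkv14-111. In WT, islands covered Gm22425 and Gm25436 and began 0.296 kb past Gm25910. In KO no island touched these 3 genes, and the nearest lay 0.962 kb from Gm25436, 5.44 kb from Gm22425 and 10.8 kb from Gm25910. Gm24911 and Gm25833, also annotated as small nucleolar RNAs, lie 12.9 and 13.3 kb above an Igkv14 segment and had no island within 2 kb in either list.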
